A study of Mus musculus with 22 samples.

Results

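The regions described here were distal H3K4me3 regions that had a peak before erythroid differentiation and after 12 h of it, and none after 24 h. They were selected on the H3K4me3 peak lists alone. All peaks of the 10 H3K4me3 lists were merged where they touched, which gave 16244 consensus regions. A region was distal if it held no transcription start site (TSS) of a protein-coding transcript in the GENCODE annotation of the mouse genome GRCm38 (mm10), and 7020 regions were distal. Of these, 290 had a peak in both 0 h lists, in at least 1 of the 12 h lists and in neither 24 h list, and these 290 regions are called the members. The same time course was found at 32 further regions that held a coding TSS and were left out.

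The lists came from ChIP-seq of G1ER cells (G1E-ER4), a mouse erythroid progenitor line that lacks endogenous GATA1 and carries GATA1 fused to the estrogen receptor (GATA1-ER), so all groups share the Gata1 deletion and the transgene. Cells were grown with SCF and erythropoietin and were undifferentiated (0 h) or were taken at 4 times (2, 6, 12, and 24 h) after β-estradiol was added at 10-7 M. H3K4me3 and H3K27ac each had 2 replicate lists per time point, and CTCF had 1 list at 0 h and 1 after 24 h, without replicate. The model is limited to 1 subclone in culture, and the labels number the replicates without saying whether they were separate cultures, so p-values measure the spread between these lists.

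H3K4me3 (trimethylated lysine 4 of histone H3) is deposited mostly at active promoters, where SET1 and MLL complexes write it near the start of transcription. Weak H3K4me3 is also found at active enhancers, which are more commonly marked by H3K4me1 and by H3K27ac, the acetylation that p300 and CBP place on active promoters and enhancers. GATA1, the master regulator of erythroid differentiation, binds GATA motifs at many such elements and both activates and represses genes.

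To show the DNA behind the members, 8 windows of 120 bases are printed in lower case, plus strand, each around the GATA motif closest to the centre of its region. They are RefSeq sequence of GRCm38. Capitals mark GATA motifs (AGATAA or AGATAG or TGATAA or TGATAG on either strand). The first set shows members where both 24 h lists lacked H3K27ac, named here by the nearest coding gene.
Nemp2 member, chr1:52566050-52566169: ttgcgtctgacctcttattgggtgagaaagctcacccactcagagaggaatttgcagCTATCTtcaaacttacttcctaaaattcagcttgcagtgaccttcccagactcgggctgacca
Hspa4l member, chr3:40738536-40738655: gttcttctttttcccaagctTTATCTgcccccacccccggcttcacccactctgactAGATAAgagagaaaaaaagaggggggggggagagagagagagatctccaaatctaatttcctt
Klf3 member, chr5:64860986-64861105: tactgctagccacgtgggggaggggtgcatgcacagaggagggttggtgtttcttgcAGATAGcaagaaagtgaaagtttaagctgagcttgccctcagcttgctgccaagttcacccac
Bach1 member, chr16:87706296-87706415: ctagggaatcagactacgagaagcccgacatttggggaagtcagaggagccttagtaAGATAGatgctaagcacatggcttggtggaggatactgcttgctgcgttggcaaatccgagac
The second set shows members where H3K27ac was present in at least 1 of the 24 h lists.
Hhex member, chr19:37443058-37443177: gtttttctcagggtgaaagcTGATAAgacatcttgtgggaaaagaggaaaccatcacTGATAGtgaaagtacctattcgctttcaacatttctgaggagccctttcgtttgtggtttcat
Cd24a member, chr10:43647514-43647633: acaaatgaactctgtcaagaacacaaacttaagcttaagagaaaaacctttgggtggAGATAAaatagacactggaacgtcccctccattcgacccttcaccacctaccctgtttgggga
Zfp609 member, chr9:65787080-65787199: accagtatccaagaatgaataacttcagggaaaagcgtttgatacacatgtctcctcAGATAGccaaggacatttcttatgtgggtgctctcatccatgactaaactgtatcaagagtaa
Cit member, chr5:115919329-115919448: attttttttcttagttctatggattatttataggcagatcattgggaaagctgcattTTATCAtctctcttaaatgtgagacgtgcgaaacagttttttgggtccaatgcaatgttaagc
A motif was within the central 500 bp of 195 members (67.2%). The share was 61.1% over all 7020 distal regions in windows of the same length. A match of letters does not show that GATA1 binds there.

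The question was whether H3K27ac stays where distal H3K4me3 is lost. It did at most of the members that had it. H3K27ac was in both 0 h lists at 173 members (59.7%), near the 57.6% of all distal regions. At 138 of these 173 members (79.8%, 95% Wilson interval 73.2% to 85.1%) it was also in both 24 h lists. A further 20 had it in 1 of the 24 h lists and 15 (8.67%) in neither. By the same rule, H3K27ac was kept at 87.0% of all distal regions and 93.2% of all H3K4me3 regions with it in both 0 h lists. Without the members where the H3K27ac peak reached 7 kb in any list, an alternative chosen after the data were seen, 128 of 162 (79.0%) kept it, and all 15 without it at 24 h were among these. At 134 members (46.2%) H3K27ac was found in all 10 lists, among them the regions near Cd24a and Mafk. In contrast, 56 members (19.3%) had no H3K27ac in any list, among them the region 13.6 kb downstream of the Zbtb16 TSS. Over all distal regions the shares were close to these, at 46.7% in all 10 lists and 22.2% in none. Over all H3K4me3 regions they were 67.5% and 13.0%. Intervals and shares of regions cover counting error only, since regions are not replicates of a condition.

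The lists held 12925 to 14452 H3K4me3 peaks, 17247 to 18333 H3K27ac peaks and 33193 or 41473 CTCF peaks. They give positions and a peak caller score. Since they hold no counts of reads, depth is unknown. No list held a score under 50, and histone peaks of 9 kb or longer were nearly missing (6 of 314324, against 1135 of 8 to 9 kb). A peak could therefore be missing for its score or for its length, and a missing peak did not show that the mark was absent. The longest member was 3151 bp, but the H3K27ac peak over a member could be longer. It reached 7 kb or more in at least 1 list at 18 members, and 11 of these 18 lacked H3K27ac in other lists. Of the remaining 272 members, 89 had H3K27ac in some lists but not in all. These 272 include the 56 members without H3K27ac in any list, which are not among the 89. As a check of the line, 10 of 11 erythroid progenitor genes had promoter H3K4me3 in both 0 h lists (not Tal1), against 1 of 4 T cell genes (Lck), 0 of 4 B cell genes and 0 of 4 liver or muscle genes.

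The H3K4me3 values at 0, 12, and 24 h chose the members and are given as a description. At 0 h, all 290 had a peak in both lists by the rule. At 12 h, the counts were 207 and 178, and 95 members had a peak in both lists, 112 in replicate 1 only and 83 in replicate 2 only. Most members therefore met the 12 h condition through a single list. The 2 h and 6 h lists were not used by the rule. There, 226 and 159 members had an H3K4me3 peak at 2 h and 178 and 185 after 6 h, so the spread between the 2 h lists was larger than the difference between their mean (192.5 ± 47.4, SD, n = 2) and that at 6 h (181.5 ± 4.95, n = 2).

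**Figure D1:**
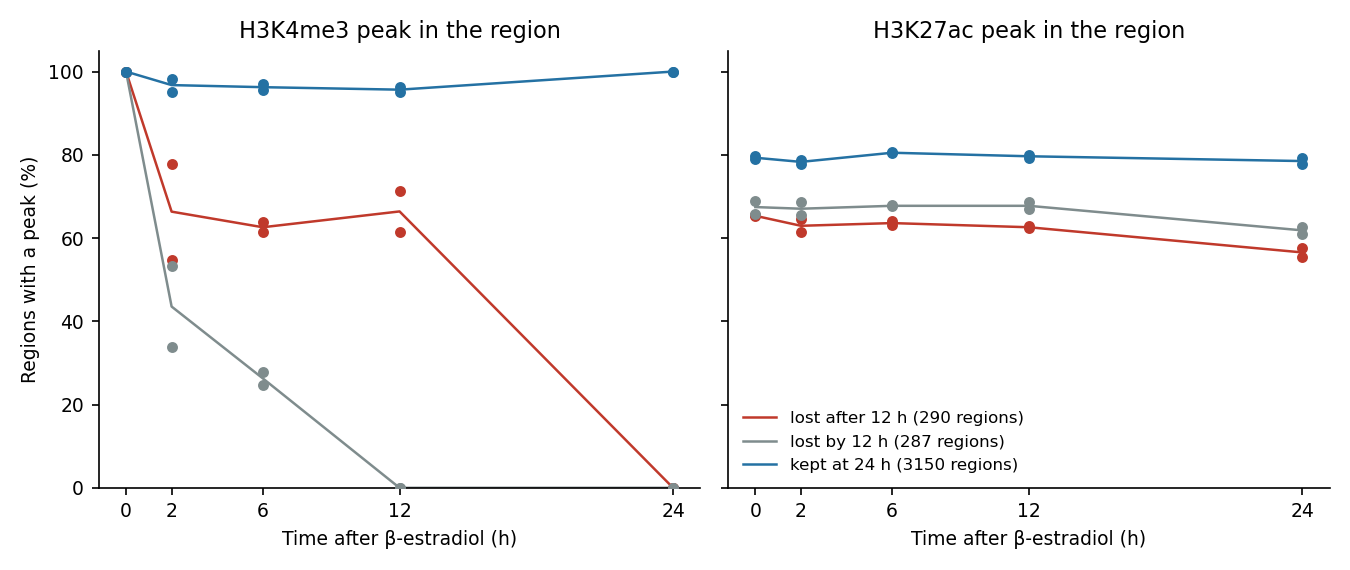
Percent of regions with a peak in each list (points, 2 per time point) against hours after β-estradiol, with lines through the means, for H3K4me3 (left) and H3K27ac (right). Red, the 290 members; grey, 287 distal regions lost by 12 h; blue, 3150 distal regions kept at 24 h. The H3K4me3 shares at 0, 12, and 24 h follow from the selection, while the H3K27ac shares of the members lie between 55.5% and 65.5% in all 10 lists.

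Across the 4 lists after 2 h and 6 h, 86 members had a peak in every list, 76 in 3, 66 in 2, 44 in 1 and 18 in none. Only 49 members had a peak in all 8 lists up to 12 h, while 45 lacked it in both 2 h lists and 60 in both 6 h lists. Most members thus lacked a peak in at least 1 list up to 12 h. By comparison, 2841 of 3150 distal regions that kept H3K4me3 in both 0 h and both 24 h lists had it in all 4 lists after 2 h and 6 h. Of the 287 distal regions with a peak in both 0 h lists and in no list at 12 h or 24 h, 11 had it in all 4.

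The members were weak H3K4me3 peaks. Because the scale of the scores may differ between libraries, each was ranked within its own list as a percentile. The median percentile over the members was 11.0 at 0 h, 10.2 after 2 h, 8.05 after 6 h and 5.36 after 12 h, among the lists in which a peak was present. In regions kept at 24 h it was 29.1 at 0 h and 22.2 after 24 h. The higher of each member's 12 h percentiles had a median of 5.8, and the scores reached from the threshold of 50.0 to 189.6. Just outside the rule were 465 distal regions with a peak in 1 of the 24 h lists, whose 24 h percentile had a median of 6.6. The rule was also applied anew to filtered peaks, which were merged again, so the regions found need not be among the 290. It found 8 regions with only peaks scored no lower than the pooled median, and 113 with the same number of top-scoring peaks from each list. The number was 95 when both 12 h lists were required, and 178 without 12 h replicate 1, 495 without 24 h replicate 1 and 550 without 24 h replicate 2. Membership thus depended on the score and the lists used.

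**Figure D2:**
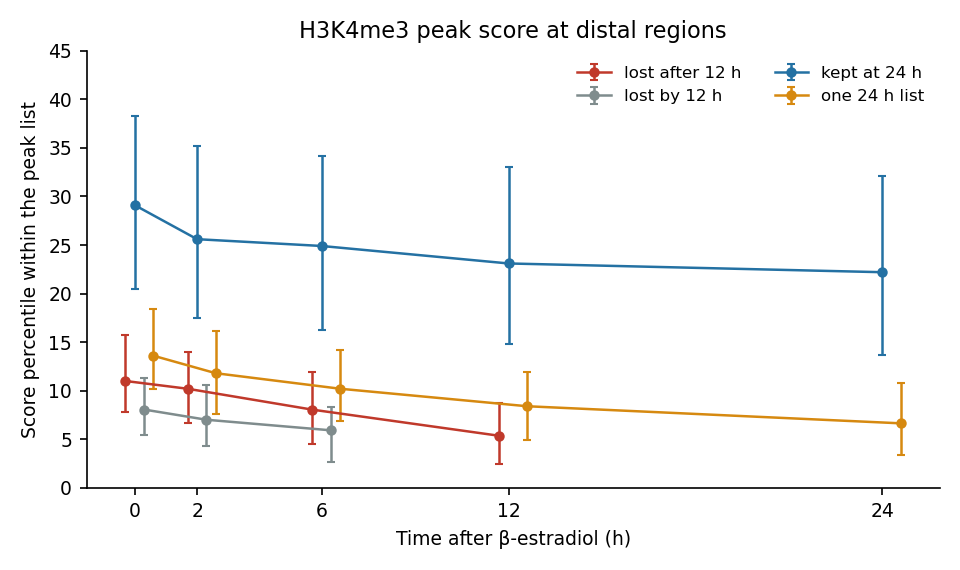
H3K4me3 score percentile within each list (median and interquartile range over regions with a peak) against hours after β-estradiol for 4 sets of distal regions, slightly offset in time. The members (red) have medians of 11.0 at 0 h and 5.36 after 12 h, below those of the regions kept at 24 h (blue, 29.1 at 0 h) and of regions with a peak in 1 of the 24 h lists (orange, 13.6 at 0 h).

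To test for a change between time points that the rule had not fixed, H3K4me3 length inside each region was compared between 6 h and 2 h with limma on log2(covered bp + 200). Of the 228 members fitted (a peak in at least 2 of these 4 lists), 0 were called lower and 0 higher at an adjusted p under 0.05, against 0% of the 13750 regions fitted in either direction. At an unadjusted p under 0.05, 18 members (7.89%) were lower and 11 (4.82%) higher, against 2.39% and 1.31% of all regions. The shares were 4.36% and 2.01% of all distal regions fitted, and 24.2% and 1.52% of regions lost by 12 h. The median log2 difference in length was -0.08 over the members and -0.02 over all regions fitted. Without the filter on lists, 8 of 290 members (2.76%) were called lower and 7 (2.41%) higher, against 0.382% and 0.259% of 16244 regions.

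The longest H3K4me3 members at 0 h show how the lists varied. In Zbtb16, which encodes the transcription factor PLZF, the member 13.6 kb downstream of the TSS (chr9:48819220-48822370, intron) had H3K4me3 over 2715 and 3101 bp at 0 h, 2813 and 2508 bp after 2 h, 2356 and 2638 bp after 6 h, 1392 and 1549 bp after 12 h and 0 bp in both lists after 24 h. The 12 h lists lay below all 6 earlier lists. In Nck2, an adaptor protein of tyrosine kinase signalling, the intronic member (chr1:43456196-43459161) had 2549 and 2459 bp at 0 h, 2294 and 1821 bp after 2 h, 2723 and 1703 bp after 6 h, and 1343 and 1333 bp after 12 h. The 12 h lists again lay below all 6 earlier lists, although replicate 2 was already shorter after 2 h and 6 h. Homer2, a synaptic scaffold gene, had a pair of members upstream of it. The one at 10.5 kb (chr7:81717473-81719654) had 1870 and 1790 bp at 0 h, 2041 and 1692 bp after 2 h, 1592 and 873 bp after 6 h and 848 and 813 bp after 12 h. The one at 23.5 kb (chr7:81730409-81732670) had 1771 and 2262 bp at 0 h, 1334 and 1380 bp after 2 h, none after 6 h, and 0 and 750 bp after 12 h. This second region lay 17 bp from the nearest 24 h H3K4me3 peak, whereas the median gap over the members was 23438.5 bp and 2 members were within 1 kb of such a peak. The others of the 8 longest were near Trip12, an E3 ubiquitin ligase gene, St7, Zfp609 and Cd24a, with mean 0 h lengths of 1801.5 to 2231 bp.

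Some members lacked H3K4me3 at an intermediate time. The region 38.2 kb upstream of Asns, the asparagine synthetase gene (chr6:7731415-7733305), had 1538 and 1801 bp at 0 h, 790 and 565 bp after 2 h, none after 6 h and 0 and 767 bp after 12 h. In Togaram1, a gene of cilia (chr12:64974776-64976325, intron), lengths were 1315 and 1550 bp at 0 h, 1292 and 1012 bp after 2 h, 0 bp in both lists after 6 h and 1092 and 1189 bp after 12 h. Near Herc1, an E3 ubiquitin ligase gene (chr9:66275126-66277293), 1 list at 2 h (819 bp) and none after 6 h had a peak, between 1999 and 655 bp at 0 h and 543 and 586 bp after 12 h. All 3 regions had H3K27ac in all 10 lists.

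H3K27ac lists were not used to choose the members. The number of members with H3K27ac was 189 and 190 at 0 h, 178 and 187 after 2 h, 186 and 183 after 6 h, 182 and 181 after 12 h, and 167 and 161 after 24 h. Both 24 h lists were thus below the 8 earlier lists. For 24 h against 0 h alone, with 2 lists against 2, an exact permutation test cannot go below p = 0.333. Of the 173 members with H3K27ac in both 0 h lists, 160 had it in both lists after 2 h, 162 after 6 h, 157 after 12 h and 138 after 24 h, so 5 to 6 of them lacked it in both lists at 2, 6, or 12 h and 15 after 24 h. In distal regions that kept H3K4me3, 2165 of 2351 (92.1%, 90.9% to 93.1%) kept H3K27ac from 0 h to 24 h by the same rule, and in regions lost by 12 h 147 of 178 (82.6%, 76.3% to 87.5%) did. In the distal regions with H3K4me3 in 1 of the 24 h lists, just outside the rule, 209 of 245 (85.3%, 80.3% to 89.2%) did. The interval of the members (73.2% to 85.1%) lay below that of the kept regions and overlapped those of the other sets.

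Members that kept H3K27ac had higher H3K27ac scores at 0 h. The median H3K27ac percentile at 0 h was 46.4 in the 138 members that kept it in both 24 h lists, 24.2 in the 20 with 1 list and 17.6 in the 15 with none, while their H3K4me3 percentiles were 12.9, 12.6 and 13.6. Among members with an H3K27ac percentile of up to 25, 11 of 31 (35.5%, 21.1% to 53.1%) kept it, against 71 of 84 (84.5%, 75.3% to 90.7%) between 25 and 50 and 56 of 58 (96.6%, 88.3% to 99.0%) above 50. In regions kept at 24 h the shares were 65.9% (61.0% to 70.4%), 94.5% (92.7% to 95.8%) and 99.2% (98.5% to 99.6%). The intervals of the members lay below these in both lower bands and overlapped in the upper one. In regions lost by 12 h they were 39.4% (24.7% to 56.3%), 85.7% (76.2% to 91.8%) and 68 of 68 (no lower than 94.7%), and the intervals overlapped those of the members in each band. Counting only H3K27ac peaks scored no lower than the pooled median, 51 members had one in both 0 h lists. Of these 51 members, 26 (51.0%) also had one in both 24 h lists. This cut assumes 1 score scale in all lists, and a peak below it at 24 h could still be present. The share by this cut over other regions is not given here.

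Where H3K27ac stayed, its peaks were shorter and ranked lower at 24 h. Over the 138 members, the median H3K27ac peak measured 2824 and 2626 bp before treatment and 2310 and 2136 bp after 24 h, and its median percentile was 47.5 and 45.6 against 41.5 and 39.8. The 0 h and 24 h lists did not overlap in either measure. In the 2165 regions that kept both marks, the peaks were 1998 and 1920 bp at 0 h and 2046 and 1963 bp after 24 h, with percentiles of 51.9 and 51.0 against 52.7 and 50.6. In the 147 regions lost by 12 h that kept H3K27ac, the values moved as in the members, from 2920 and 2732 bp to 2496 and 2378 bp and from percentiles of 47.0 and 47.8 to 43.2 and 41.2. Within 2 kb of the members, mean H3K27ac length per region was 1690 ± 16.3 bp (SD, n = 2) at 0 h, 1642 ± 76.3 bp after 2 h, 1654 ± 10.2 bp after 6 h, 1631 ± 12.4 bp after 12 h and 1409 ± 58.2 bp after 24 h, which is 83.4% of the 0 h value. It was 1781 ± 16.5 bp at 0 h and 1788 ± 56.6 bp after 24 h in regions kept at 24 h. Regions lost by 12 h had 1775 ± 1.06 bp and 1536 ± 43.4 bp (86.5%).

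**Figure D3:**
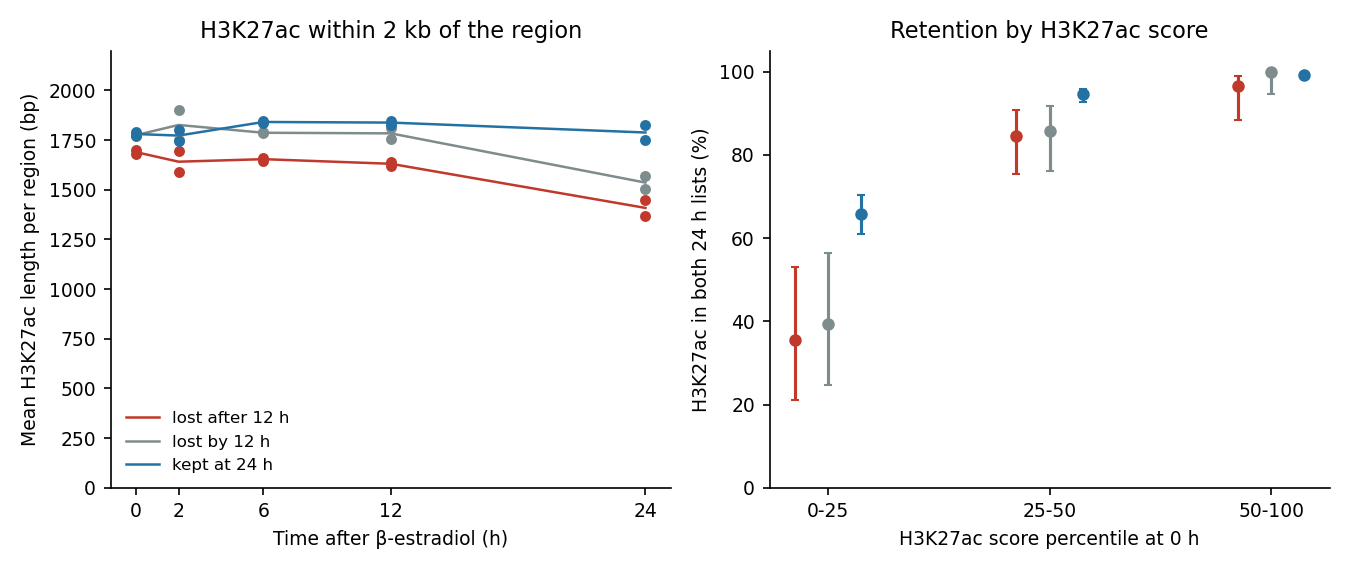
Left, mean H3K27ac length in bp within 2 kb of each region against hours after β-estradiol, 1 point per list and lines through the means. Right, percent of regions with H3K27ac in both 0 h lists that have it in both 24 h lists, with 95% Wilson intervals, by H3K27ac score percentile at 0 h. Colours are as for the plot of peak shares, and the members (red) have their lowest lengths (1367.8 and 1450.1 bp) at 24 h and their lowest retention (35.5%) in the lowest band.

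Each region was then tested with limma on log2(H3K27ac covered bp inside the region + 200), 24 h against 0 h, with all 10 lists and Benjamini-Hochberg adjustment over all regions fitted. Of 215 members fitted (H3K27ac in at least 2 lists), 10 (4.65%) fell and 1 (0.465%) rose, against 1.1% lower and 1.31% higher of all 13619 regions. The share that fell was similar in regions lost by 12 h, where 9 of 216 (4.17%) fell and 0 rose. Over all distal regions fitted, 1.79% fell and 1.0% rose. At an unadjusted p under 0.05, 29 members (13.5%) were lower and 3 (1.4%) higher, against 4.38% and 7.39% of all regions. The median log2 difference was 0.0 for the members and for all regions. By presence, 15 of the 215 (6.98%) had H3K27ac in both 0 h lists and neither 24 h list, against 2.37% of all regions fitted, and 2 (0.93%) had the opposite, against 1.07%. The 75 members that could not be fitted had H3K27ac in fewer than 2 lists. At 67 members H3K27ac covered the whole region in all 10 lists, where no difference can appear. With 2 kb added on either side, an alternative chosen after the data were seen, 17 of 218 members (7.8%) fell and 0 rose, against 1.61% lower and 1.54% higher of 13870 regions, with a median log2 difference of -0.19 for the members and 0.02 for all regions. In regions lost by 12 h, 22 of 219 (10.0%) fell and 3 (1.37%) rose, with a median of -0.15. Over all distal regions fitted, 3.2% fell and 1.49% rose, with a median of -0.02. Of the 17 members that fell, 9 still had H3K27ac in both 24 h lists. Without 24 h replicate 1, 28 members (13.1%) were called lower inside the region, against 3.44% of all regions in that fit, and without 24 h replicate 2 these were 22 (10.2%) against 2.53%. In fits that leave 1 list at a time point, its spread is taken from the other time points.

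At the members where H3K27ac fell most, both 24 h lists lacked it. The region 63.8 kb upstream of Nemp2, a nuclear envelope protein gene (chr1:52565422-52566870), had H3K27ac over 1417 and 1449 bp at 0 h, 1449 bp in all 4 lists after 2 h and 6 h, 1431 and 1449 bp after 12 h and 0 bp after 24 h (-3.03 ± 0.0105 SE as log2 difference, limma adjusted p = 8.35e-10). Where H3K27ac is at 0 bp, the size of the difference is set by the 200 bp added: with 50 bp it was -4.89 for this region and with 1000 bp -1.28. The mark covered nearly the whole region up to 12 h and was missing only at 24 h. The same course was found 5.37 kb upstream of Hspa4l, a heat shock protein gene (chr3:40738089-40739129), with 944 and 1041 bp at 0 h, 1041 bp in the 6 lists from 2 h to 12 h and 0 bp after 24 h (-2.57 ± 0.0358, limma adjusted p = 5.53e-07). At chr3:144356378-144357377, which is over 100 kb from a coding TSS, H3K27ac covered 635 to 1000 bp in the 8 lists up to 12 h and 0 bp after 24 h (-2.32 ± 0.173, limma adjusted p = 0.00206). Such a late loss was also seen 2.18 kb upstream of Gm42372 (chr7:16980033-16980910, 545 to 878 bp up to 12 h, -2.37 ± 0.118, limma adjusted p = 0.00032).

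Other members lost H3K27ac earlier or in steps. At chr18:16958763-16959751, over 100 kb from a coding TSS, it covered 989 and 989 bp at 0 h, 989 and 989 bp after 2 h, 989 and 969 bp after 6 h, 554 and 342 bp after 12 h and 0 bp after 24 h (-2.57 ± 0.144, limma adjusted p = 0.000531). The region 15.5 kb upstream of Gng2, a G protein γ subunit gene (chr14:19993172-19994232), had H3K27ac at 0 h only (1017 and 626 bp, -2.33 ± 0.206, limma adjusted p = 0.00396), although H3K4me3 was there in all 8 lists up to 12 h. In a fit to the 0 h and 24 h lists alone, the region at chr3:144356378-144357377 and the Gng2 region were not called (limma adjusted p = 0.0967 and 0.109). The member 10.5 kb upstream of Homer2 kept H3K27ac in all lists but it was shorter at 24 h (1923 and 2060 bp at 0 h, 1623 and 1590 bp after 24 h, -0.28 ± 0.0314, limma adjusted p = 0.0115). The only member called higher was that in Togaram1 (0.12 ± 0.0143, limma adjusted p = 0.0142). It had 1407 and 1414 bp at 0 h and 1550 bp, its whole length, in both 24 h lists. Its H3K27ac percentile went the other way, from 9.87 at 0 h to 6.31 after 24 h. The call for Togaram1 was lost without any single 0 h or 24 h list. Standard errors this small arise where peaks cover a region to its ends. The H3K27ac peaks of the 15 members that lost the mark were 626 to 3767 bp long at 0 h, and 1 of the 15 had H3K27ac within 2 kb in a 24 h list.

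Among the members with H3K27ac in all lists, the longest coverage was found at Zfp609 (chr9:65785567-65788406), a zinc finger gene, at 2840 bp in each of the 10 lists. The intronic region of Cit, the citron kinase gene of cytokinesis (chr5:115918212-115920593), was covered over all its 2382 bp in each list. Its H3K27ac percentile was 90.0 at 0 h and 93.3 after 24 h, while H3K4me3 covered 1539 and 1499 bp at 0 h, and 0 and 650 bp after 12 h. Near Cd24a, the gene of a surface glycoprotein of blood cell precursors (chr10:43646753-43648877, 66.8 kb from the TSS), H3K27ac covered all 2125 bp in every list. H3K4me3 there was 1602 and 2125 bp at 0 h, 1715 and 964 bp after 2 h, 1634 and 1542 bp after 6 h and 1407 and 713 bp after 12 h. Regions near Trip12, Igsf3 and Prmt9 completed the 6 longest, with 2314 to 2633 bp in each list. In contrast, 4 members in or near Zbtb16, St7, Pitpnc1 and Zfhx4 had no H3K27ac in any list. They had the longest H3K4me3 among the 56 without H3K27ac. The other members near Zbtb16 and Pitpnc1 had H3K27ac in 3 and 6 lists. Nck2 had H3K27ac over its whole 2966 bp in 8 lists and none in replicate 1 after 2 h and at 6 h. Its H3K27ac peak reached 8539 bp, near the upper length of the lists.

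**Figure D4:**
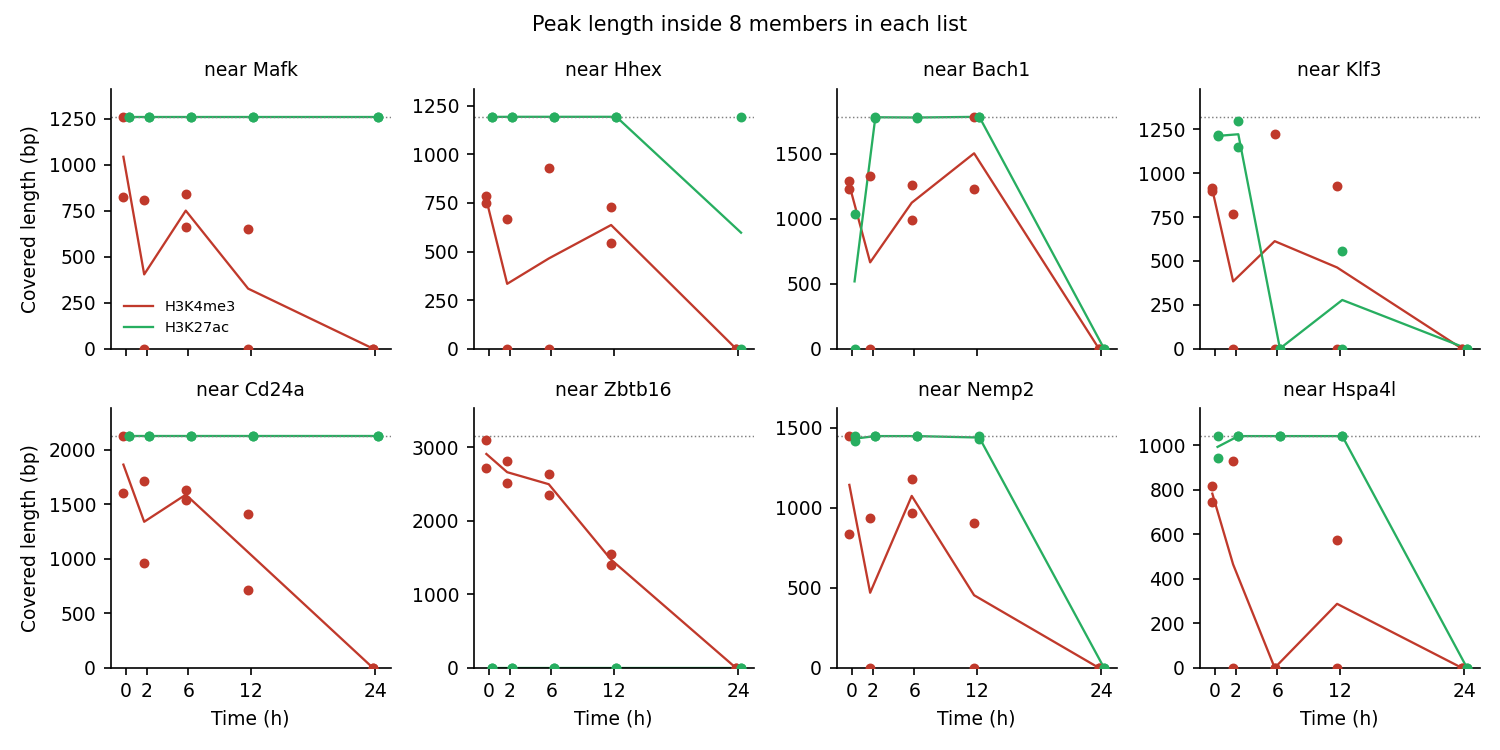
Length in bp covered by H3K4me3 (red) and H3K27ac (green) inside 8 members, 1 point per list with lines through the means of 2 lists, against hours after β-estradiol. The dotted line is the length of the region, and points of the marks are offset in time. H3K4me3 is at 0 bp in both 24 h lists by the rule. H3K27ac stays at full length near Mafk and Cd24a and has no peak in the Zbtb16 member plotted. It is at 0 bp after 24 h near Bach1, Klf3, Nemp2 and Hspa4l.

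To relate the members to blood cell biology, their nearest coding genes within 100 kb were compared with gene lists chosen with earlier results of these data known. Of 3650 distal regions with H3K4me3 in both 0 h lists and a gene this close, 243 (6.66%) were members. Erythroid transcription factor genes had 3 members among 12 such regions, stem cell and myeloid transcription factor genes 1 of 26 and proliferation genes 1 of 9. There were 0 of 7 for mast cell and progenitor genes lowered by GATA1, 0 of 11 for erythroid genes raised by GATA1, 0 of 8 for cytokine receptor and signalling genes and 0 of 2 for megakaryocyte genes. The counts are small and were not tested.

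The erythroid factor genes were Mafk, Bach1 and Klf3. Mafk encodes a small Maf protein, the partner of p45 in NF-E2. Its member (chr5:139803178-139804438) lay 5.66 kb downstream of a Mafk TSS, with its midpoint in an exon of Tmem184a, a neighbouring gene. It had H3K4me3 over 826 and 1261 bp at 0 h, 807 and 0 bp after 2 h, 662 and 839 bp after 6 h and 652 and 0 bp after 12 h. H3K27ac covered its 1261 bp in all 10 lists, with a percentile of 66.3 at 0 h and 32.8 after 24 h, and CTCF had a peak at 0 h and 24 h. Counting only H3K27ac peaks scored no lower than the pooled median, this region was called lower (log2 difference -2.87, limma adjusted p = 4.63e-08). That threshold assumes 1 score scale in all lists. Counting all peaks within 2 kb of this region, the log2 difference in H3K27ac length was 0.0898 (limma adjusted p = 0.64). The H3K27ac peak over it reached 8329 bp, near the upper length of the lists. Bach1 encodes a heme-sensing repressor that pairs with small Maf proteins. The member in its intron (chr16:87705468-87707251) had H3K27ac over 0 and 1034 bp at 0 h, 1773 to 1784 bp in the 6 lists from 2 h to 12 h and 0 bp in both lists after 24 h (limma adjusted p = 0.617 for 24 h against 0 h). The difference rested on which 0 h list was used (-2.63 without replicate 1 and 0.0 without replicate 2). Its H3K4me3 was 1287 and 1231 bp at 0 h, 1327 and 0 bp after 2 h, 1259 and 986 bp after 6 h and 1226 and 1780 bp after 12 h, so both marks were present at 12 h and in no list at 24 h. Klf3 encodes a repressor of the Krüppel-like family. The region 34.1 kb downstream of its TSS (chr5:64860877-64862198) had H3K27ac over 1210 and 1216 bp at 0 h, 1149 and 1296 bp after 2 h, none after 6 h, 0 and 554 bp after 12 h and none after 24 h (-2.82 ± 0.579, limma adjusted p = 0.113). This region had H3K27ac only in 0 h, 2 h and 1 of the 12 h lists, and H3K4me3 in 1 list each at 2, 6, and 12 h. Without 12 h replicate 1 or 2 it was called lower (limma adjusted p = 2.52e-05 and 2.82e-05).

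Hhex, a homeobox factor of blood and endothelial progenitors, had a member 5.91 kb downstream (chr19:37442644-37443837). H3K27ac covered 1193 or 1194 bp there in 9 lists and 0 bp in 24 h replicate 2 (-1.4 ± 0.845, limma adjusted p = 0.617). The replicates disagreed, and the difference rested on which 24 h list was used (-2.8 without replicate 1 and 0.0 without replicate 2). H3K4me3 was 749 and 784 bp at 0 h, 0 and 667 bp after 2 h, 0 and 928 bp after 6 h and 728 and 545 bp after 12 h. The member near Mycn, a MYC family gene (chr12:12912036-12912509, 28.1 kb), was the shortest at 474 bp. It overlaps Rpl36-ps3, a processed pseudogene whose reads could be shared with its parent gene, so its values are uncertain. H3K4me3 there was 357 to 455 bp in all 8 lists up to 12 h, and H3K27ac had a peak in 1 list (364 bp, 2 h).

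Like the regions kept at 24 h and those lost by 12 h, the members lay mostly outside genes. By protein-coding gene models, 182 (62.8%) were intergenic, 96 (33.1%) intronic and 12 (4.14%) exonic, and the median distance to a coding TSS was 25287 bp. Regions kept at 24 h were 65.3% intergenic with a median distance of 22082.5 bp, and regions lost by 12 h were 52.3% intergenic with 24545 bp. There were 62 members within 10 kb of a coding TSS and 47 over 100 kb away. Retention of H3K27ac was 31 of 37 (83.8%) within 10 kb and 107 of 136 (78.7%) farther away. A TSS of a noncoding transcript was in 23 members (7.93%), against 21.9% of the regions kept at 24 h. At 24 h, 183 members had H3K27ac in at least 1 list, and at 4 of them the H3K27ac peak itself held a coding TSS. The 290 members had 278 different nearest genes. Those with a pair of members within 100 kb were Arid2, Btbd10, Cfap54, Foxp1, Homer2, Hoxc11, Pitpnc1, Srsf5 and Zbtb16.

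The sequences of the members had fewer CpG dinucleotides than those of regions kept at 24 h. In the central 500 bp, the median GC content was 46.2% and the median number of CpG was 8, against 49.4% and 12 in regions kept at 24 h. Medians were 45.6% and 8 in regions lost by 12 h, and 47.8% and 9 in all distal regions. Only 11 members (3.79%) had over 50% GC with an observed to expected CpG ratio above 0.6, against 20.2% of the regions kept at 24 h and 12.1% of all distal regions. In regions lost by 12 h the share was 1.74%. Repeats made up over 50% of the window in 34 members (11.7%), of which 9 had H3K27ac in both 0 h lists. The GATA motifs printed with the sequences were in 71.4% of regions lost by 12 h and 54.9% of those kept at 24 h. H3K27ac was in both 0 h lists at 133 of 195 members with the motif (68.2%) and at 40 of 95 without it (42.1%), a difference that was not tested, and 104 of 133 (78.2%) and 34 of 40 (85.0%) kept it at 24 h. The other motifs searched on both strands of the same windows were TGTGGT (RUNX) in 32.1% of members and 30.6% of all distal regions, TGANTCA (AP-1) in 18.6% and 14.7%, GAGGAAG (PU.1) in 22.1% and 20.0%, CCNCNCCC (KLF1) in 41.7% and 45.2%, and CANNTG (E-box) in 90.3% and 90.2%.

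CTCF, the DNA-binding protein of chromatin loop anchors, had a peak at 54 members at 0 h and at 61 after 24 h, and 52 members (17.9%) had it in both lists. The share with both was 29.2% in regions kept at 24 h and 13.9% in regions lost by 12 h. H3K27ac was kept at 25 of 29 members with CTCF in both lists (86.2%) and at 108 of 137 without CTCF (78.8%). CTCF was in the 0 h list only at 2 members and in the 24 h list only at 9, and the 24 h list was also the longer one, whose part in this was not tested. High scores among these were 430.35 in Ahdc1 (24 h), 121.06 near Gm19935 (24 h) and 116.98 near Adgrg7 (0 h). With 1 list each, these differences have no replicate check.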

How the data were processed

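ChIP-seq of H3K4me3, H3K27ac and CTCF in G1ER cells gave 22 deposited peak lists. Per the labels and the study's methods, the authors aligned reads to mm10 with Bowtie2, kept reads with a single location and called peaks per library with MACS without its shifting model. The extract protocol names the human genome, but the positions are mouse. MACS version, control and threshold are not given in the sources used here, and the CTCF processing was not described separately. The catalogue number of the H3K4me3 antibody differs between labels and methods. The deposited score of each peak ranks it within its list. No counts are given, so depth is unknown.

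Lists were grouped by mark and time. Peaks were merged where they touched, and any overlap of at least 1 bp counted as present. TSS were those of GENCODE M21 protein-coding transcripts. The members, gene lists and tests were chosen with earlier results of these data known. Covered length was tested on log2(bp + 200) with limma (trend, Benjamini-Hochberg), where at least 2 of the fitted lists had a peak. The script was tested on simulated lengths with normal noise. They did not model peaks missing at a time point or regions that a peak covers whole. Named members were those with the longest H3K4me3 at 0 h (8), the largest called H3K27ac differences (up to 6 per direction), the longest H3K27ac in all lists (6), the longest H3K4me3 without H3K27ac (4), those near a listed gene, those with CTCF in 1 list only (4, of which 1 is not reported here) and those without H3K4me3 in both lists at 2 h or 6 h (4). Names are the nearest coding gene within 100 kb. Alternatives were pseudocounts of 50 and 1000 bp, other list minimums (1 and 5), merging within 500 bp, a TSS distance of 2 kb, stricter scores, equal numbers of peaks, overlap of 50%, H3K27ac within 500 bp, scaling by median peak length, autosomes and X only, a replicate block and leaving out each list. Added after the data were seen were H3K27ac within 2 kb, leaving out members with an H3K27ac peak of 7 kb or longer, and the TSS of any transcript of a coding gene. The fits ran in limma 3.58.1 under R 4.3.3, and all other steps in Python 3.11.15 (numpy 2.4.6, pandas 2.3.3, scipy 1.17.1, matplotlib 3.10.9).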

Additional observations from a re-analysis of the deposited data

How the results depend on the processing

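The rule was applied anew under each alternative, so the regions found need not be among the 290. Their number was 8 with H3K4me3 peaks scored no lower than the pooled median and 95 with both 12 h lists required. It was 113 with equal numbers of top-scoring peaks, and 178 to 550 without 1 list. With the other definitions it was 277 to 290 (merging within 500 bp, no TSS within 2 kb, autosomes and X only, TSS of any transcript of a coding gene). The share that kept H3K27ac (79.8%) was 51.0% with H3K27ac peaks scored no lower than the pooled median, 73.7% to 87.3% without 1 list (87.3% without 24 h replicate 2) and 78.1% to 81.1% otherwise (79.0% without members under an H3K27ac peak of 7 kb or longer). Members called lower for H3K27ac (10) were 17 within 2 kb, 10 to 28 without 1 list and 8 to 13 otherwise. The 17 within 2 kb were 7.8% of members fitted, against 1.61% of all regions in that fit. With only the 0 h and 24 h lists, the 13 were 6.05% against 2.34%. At the pooled median score, 8 of 73 members (11.0%) were lower against 1.59%. The same members were not always called: these 8 shared 0 with the 10, the 13 shared 7, and the 17 shared 9. The 1 call higher became 3 with only the 0 h and 24 h lists, 0 when scaled by median peak length, 0 within 2 kb and 0 to 2 without 1 list. For H3K4me3 at 6 h against 2 h (0 calls), the fit to all 10 lists called 1 member lower, the fit without a filter called 8 lower and 7 higher, and 0 were called without any 1 list. The 3 higher for H3K27ac with only the 0 h and 24 h lists were 1.4% of members, against 1.82% of all regions. For H3K4me3, the 1 lower in the fit to all 10 lists was 0.345% of members, against 0.0135% of all regions. With the replicate block, 10 members (4.65%) were lower and 1 (0.465%) higher for H3K27ac, against 1.01% of all regions in each direction. For H3K4me3 there were 0 in either direction with this block. Replicate numbers did not pair the lists: deviations of equal numbers correlated at -0.0351 to 0.054 in 10 pairs of H3K27ac time points and 0.0048 for H3K4me3. The cause of these differences was not tested. Peak lists without read counts cannot show changes below the score threshold, in domains too long for the lists or inside regions that a peak covers whole.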
